A study of Homo sapiens with 4 samples.

Results

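The 10 genes described here encode the enzymes that carry one-carbon units on folate in mitochondria and in the cytosol, together with the mitochondrial folate carrier. They were chosen by symbol, as listed, from the table of read counts, and all 10 were found among its 26364 rows. Of these genes, 7 act in mitochondria (SHMT2, MTHFD2, MTHFD2L, MTHFD1L, ALDH1L2, SLC25A32 and MTFMT) and 2 in the cytosol (SHMT1 and MTHFD1), and FPGS acts in both compartments.

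RNA was sequenced from SW480 and SW620, a pair of human colorectal cancer cell lines, and each line gave 1 control library and 1 library from cells in which SHMT2 was knocked down. By the study's methods, the knockdown used a short hairpin RNA against SHMT2 under a doxycycline switch in stably transduced, puromycin-selected cells. The text describes the controls as control shRNA cells, the labels call them only control, and whether they received doxycycline is not given in the sources used here, so the drug and the knockdown cannot be told apart. More than 1 hairpin was made, and the one that was sequenced is not named. The libraries held 5530129 to 13774288 counts, and the 10 genes took 0.0993% to 0.160% of them. Knockdown libraries held 0.671 times the counts of the matching control for SW480 and 2.49 times for SW620. Epithelial markers were abundant, with 5391 to 10480 CPM (read counts relative to the library total, scaled between libraries by TMM) summed over 9 genes. KRT20 and LGALS4 had 0 to 15 counts in each library, and VIL1 had 2 and 1 counts in SW480 control and knockdown cells but 2029 and 5105 in SW620 cells. Of 8 genes of blood, vessel and stromal cells, PTPRC, CD3E, PECAM1, COL1A2 and DCN had 0 to 2 counts in each library, COL1A1 had 35 to 203, CD68 27 to 104 and VWF 4 to 15, and the list summed to 11.8 to 33.2 CPM. CD68 had 104 counts in control and 34 in knockdown SW480 cells, and 27 and 61 in SW620 cells. Scaled for depth, it went from 10.8 to 5.12 CPM in SW480 and from 4.94 to 4.53 CPM in SW620 (log2 fold change -0.64, edgeR adjusted p = 0.488). Among the epithelial genes, KRT8 and KRT18 fell by 0.34 each on the log2 scale on knockdown (edgeR, Benjamini-Hochberg adjusted p = 0.0041 and 0.0054), and CDH1 rose by 0.45 (adjusted p = 0.021). The part of these shifts in the results below was not tested. In bulk RNA, fewer cells that express a gene and less RNA per cell cannot be told apart.

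In mitochondria, serine hydroxymethyltransferase 2 (SHMT2) moves a carbon from serine to tetrahydrofolate and leaves glycine. The methylene group is oxidized by MTHFD2 or MTHFD2L, and the formyl group is then released as formate by MTHFD1L, oxidized to carbon dioxide by ALDH1L2, or used by MTFMT to formylate the initiator methionyl-tRNA of mitochondrial translation. Formate leaves for the cytosol, where the trifunctional enzyme MTHFD1 loads it back onto folate for purine and thymidylate synthesis, and SHMT1 catalyzes the serine reaction in that compartment. The carrier SLC25A32 brings folate into mitochondria, and FPGS adds the glutamate tail that retains folate in the cell.

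The study measured SHMT1 and SHMT2 by real-time PCR with separate primers, which are shown because they mark where each isozyme is told from the other. Positions are on GRCh38 with GENCODE 29, which is not the build of the submitters' processing notes (hg18).
SHMT2 forward: cccttctgcaacctcacgac
SHMT2 reverse: tgagcttatagggcatagactcg
SHMT1 forward: ctggcacaacccctcaaaga
SHMT1 reverse: aggcaatcagctccaatccaa
The SHMT2 forward primer lies on chromosome 12 from 57231859 to 57231878, in exon 4 of the 12 exons of a coding transcript on the plus strand, and the reverse primer from 57232268 to 57232290, in exon 5. The product spans 135 bases of coding sequence. The SHMT1 forward primer lies on chromosome 17 from 18355899 to 18355918, in exon 2 of 12 on the minus strand, and the reverse primer from 18353757 to 18353777, in exon 3. That product spans 94 bases, also coding. Each primer had an exact match in 0 other annotated genes. For the sequencing counts, the transcripts of each gene were cut into words of 36 bases, and 0% of the SHMT2 words occurred in the same sense in a transcript of another gene. The share was 4.27% for SHMT1, whose largest same-sense match was the processed pseudogene SHMT1P1.

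SHMT2 (chromosome 12, 57229327 to 57234935) is the gene the hairpin targets, and its level checks the labels. The table held 2661 counts in control and 205 in knockdown SW480 cells, and 3751 counts in control and 640 in knockdown SW620 cells, which corresponded to 277, 30.9, 687 and 47.5 CPM. Both knockdown libraries lay below both controls. Knockdown SW480 cells kept 11.2% of the control level, and knockdown SW620 cells kept 6.92%. Fitted over both lines, the change was -3.54 on the log2 scale (standard error 0.13, 95% interval -3.79 to -3.30), with an adjusted p of 1.06e-167 in the quasi-likelihood test of edgeR. The size of that p depended on the setting. By the same test it was 1.93e-08 with a filter of 50 counts and 7.5e-13 after thinning, at log2 fold changes of -3.54 and -3.57. In the model without the cell line the log2 fold change was -3.62 and the adjusted p was 1.00 (unadjusted P = 0.0062 from the same edgeR test over all genes), so the call rests on pairing the libraries by line. The log2 ratios of the lines, -3.16 and -3.85, differed by 0.69 with a counting standard error of 0.12, which covers read counting only and no spread between cultures. With 1 library per line and condition, this difference between the lines has no replicate and was not tested. The higher control level in SW620 and the lower remaining percentage went together, and the levels left were 30.9 and 47.5 CPM. NDUFA4L2 overlaps 33 bases of the SHMT2 locus on the opposite strand and had 6 to 68 counts per library. The antisense gene AC137834.2, without a row of its own in the count table, overlaps 701 bases and holds 6.48% of the SHMT2 words in reverse.

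**Figure D1:**
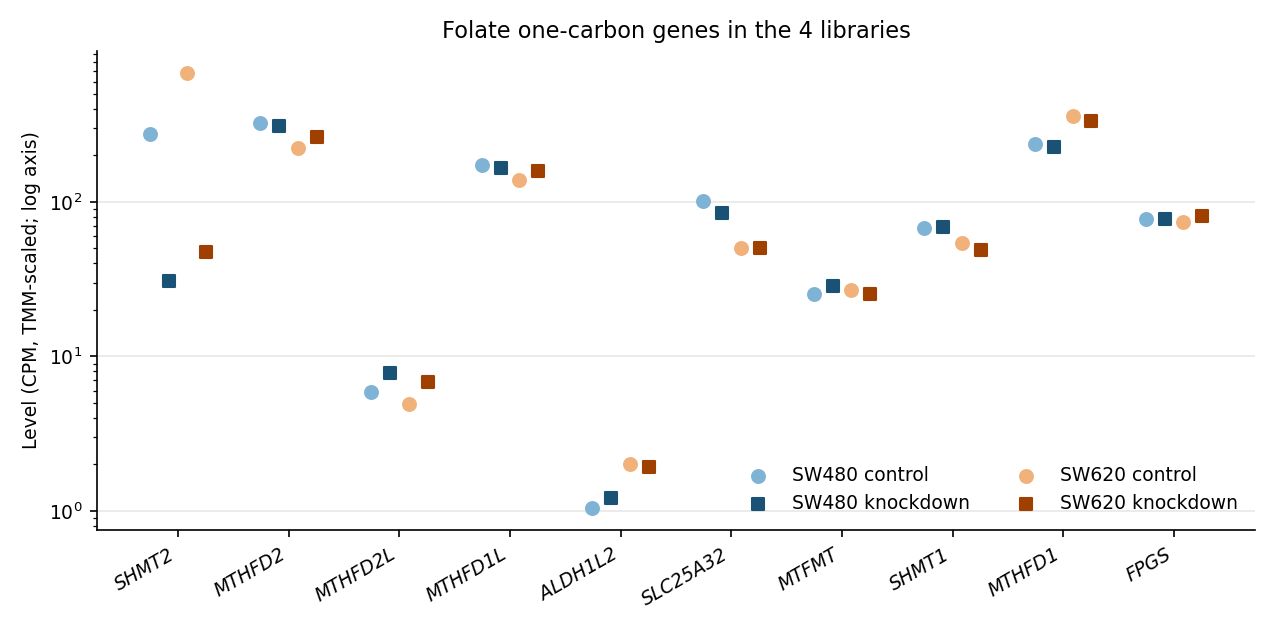
Level of each of the 10 genes in the 4 libraries, in TMM-scaled CPM on a log axis. Circles are control and squares are knockdown libraries. SHMT2 fell from 277 to 30.9 CPM in SW480 and from 687 to 47.5 CPM in SW620, and the levels of the other 9 genes after knockdown lay between 82.8% and 138% of control.

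Of the 10 genes, SHMT2 was the 1 called at an adjusted p under 0.05 in knockdown against control cells, and it fell. Among the 14024 genes tested, 1.17% were called lower and 0.492% were called higher, and SHMT2 is the gene that the hairpin targets. Of the 9 others, 0 were called in either direction by edgeR's quasi-likelihood test, with adjusted p from 0.795 to 0.998, and 0 had an unadjusted P under 0.05. Over all 14024 genes tested, edgeR gave 688 lower and 582 higher at that unadjusted threshold. With the DESeq2 Wald test, 0 of the 9 had an unadjusted P under 0.05, beside 178 lower and 63 higher of the 14024. At such shares, 0 of 9 says little about these genes. Their median log2 fold change was 0.05, against 0.01 over all genes tested. A missed threshold does not show an equal level, so the interval of each change is given below. For 7 of the 9 genes the 95% interval lay within a 1.5-fold change in either direction. The exceptions were MTHFD2L and ALDH1L2, the genes with the fewest counts. The intervals rest on a spread shared across genes and hold none between replicate cultures. The share of all tested genes with intervals this narrow was not computed. In 4 of the 9 genes the direction was the same in both lines.

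**Figure D2:**
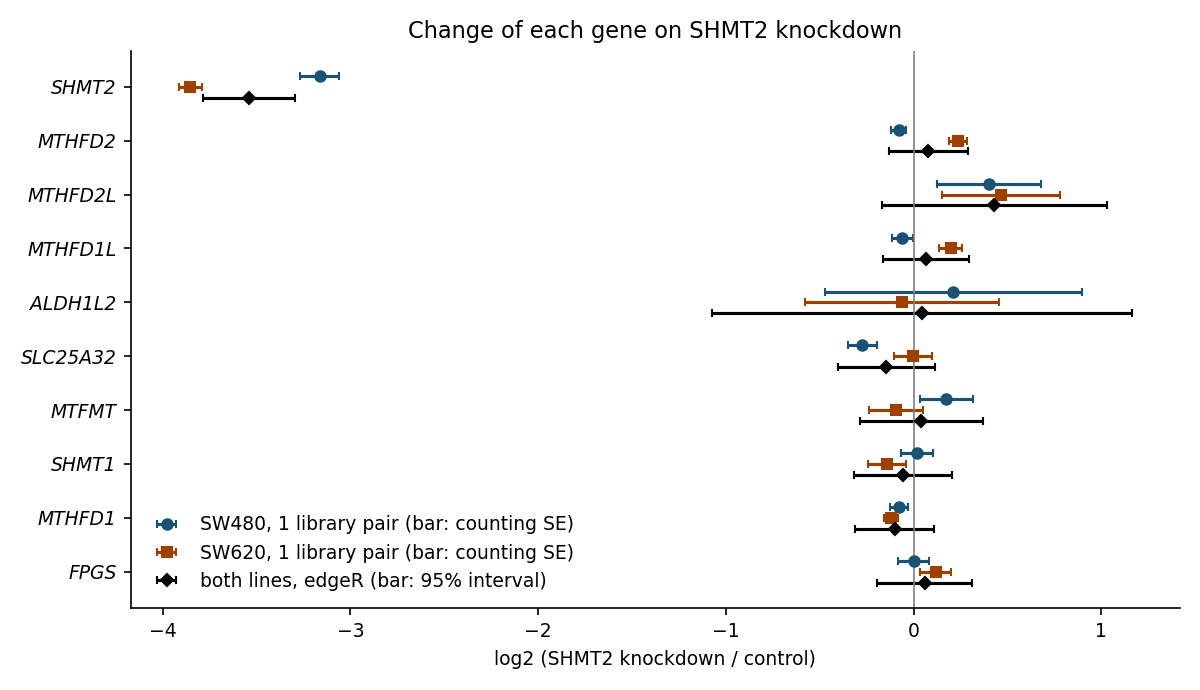
Log2 ratio of SHMT2 knockdown to control for each gene, in SW480 (circles) and SW620 (squares) with counting standard errors, and over both lines (diamonds) with the 95% interval from edgeR. SHMT2 lies at -3.54 over both lines, and the intervals of the other 9 genes include 0.

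The next steps of the mitochondrial branch are the dehydrogenases. MTHFD2 (chromosome 2, 74198562 to 74217565), the main mitochondrial methylene-tetrahydrofolate dehydrogenase of growing cells, had 326 CPM in control and 308 CPM in knockdown SW480 cells, and 223 and 263 CPM in SW620 cells. The SW620 libraries were both lower than the SW480 libraries, and the knockdown libraries lay inside the range of the controls. The fold change over both lines was 1.06 (95% interval 0.912 to 1.22, adjusted p = 0.961 from edgeR). In SW480 the log2 ratio was -0.08 (counting standard error 0.041) and in SW620 it was 0.24 (counting standard error 0.048), which are opposite directions. MTHFD2L (chromosome 4, 74114174 to 74303099), its close relative, had 57 and 52 counts in SW480 control and knockdown cells and 27 and 92 counts in SW620 cells, or 5.93, 7.83, 4.94 and 6.83 CPM. Both knockdown libraries lay above both controls. The fold change was 1.35 (95% interval 0.890 to 2.04, adjusted p = 0.795 from edgeR), so a rise of up to 2.04-fold lay within the error at this depth. The SLC4A5 gene lies opposite the end of MTHFD2 and its transcripts held 25.5% of the MTHFD2 words in reverse, at 55 to 182 counts per library against 1217 to 3542 for MTHFD2. If strand was not used in counting, reads of such gene pairs could mix. In the same sense, 7.01% of the MTHFD2 words occurred in other genes, the largest match being the processed pseudogene MTHFD2P7 with 3.6%.

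The formyl group has 3 fates among these genes. MTHFD1L (chromosome 6, 150865549 to 151101887), which releases formate, had 173 and 166 CPM in SW480 control and knockdown cells and 138 and 159 CPM in SW620 cells. The knockdown libraries lay within the range of the controls, and the fold change was 1.05 (95% interval 0.894 to 1.23, adjusted p = 0.975 from edgeR). Like MTHFD2, it had ratios of opposite sign, -0.06 in SW480 and 0.20 in SW620 on the log2 scale (counting standard errors 0.056 and 0.061).
ALDH1L2 (chromosome 12, 105019784 to 105084577), the mitochondrial formyl-tetrahydrofolate dehydrogenase, was barely detected. It had 10 counts in control and 8 in knockdown SW480 cells, and 11 and 26 in SW620 cells, or 1.04, 1.20, 2.01 and 1.93 CPM. Both SW480 libraries were lower than both SW620 libraries, and the control and knockdown groups overlapped. The fold change on knockdown was 1.03 with an interval of 0.476 to 2.24 (adjusted p = 0.998 from edgeR), so a 2-fold change in either direction lay within the error at this depth. C12orf45, a neighbour on the opposite strand, had 66 to 161 counts per library, more than ALDH1L2 itself, and its transcripts held 1.29% of the ALDH1L2 words in reverse.
MTFMT (chromosome 15, 65001512 to 65029639), the methionyl-tRNA formyltransferase, had 25.5 and 28.8 CPM in SW480 control and knockdown cells and 27.1 and 25.4 CPM in SW620 cells. The groups overlapped and the 4 values lay close together, with a fold change of 1.03 (95% interval 0.821 to 1.29, adjusted p = 0.989 from edgeR). Of the MTFMT words, 9.53% occurred in the same sense in other genes.

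The carrier SLC25A32 (chromosome 8, 103398635 to 103415189) had 102 and 84.3 CPM in SW480 control and knockdown cells and 50.4 and 50.3 CPM in SW620 cells. Both SW480 libraries lay above both SW620 libraries. The ratio of knockdown to control was 82.8% in SW480 (log2 ratio -0.27, counting standard error 0.076) and 99.8% in SW620. Over both lines the fold change was 0.904 (95% interval 0.756 to 1.08, adjusted p = 0.898 from edgeR). Of its words, 9.98% occurred in reverse in DCAF13, a neighbour on the opposite strand that had 533 to 1527 counts per library against 275 to 980 for SLC25A32. A gene model without a row of its own in the count table, AC012213.5, covers the locus in the same sense and shares 67.6% of the words.

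In the cytosol, SHMT1 (chromosome 17, 18327860 to 18363563) had 68.1 and 69.0 CPM in SW480 control and knockdown cells and 53.8 and 48.8 CPM in SW620 cells. The groups overlapped, and the fold change was 0.960 (95% interval 0.801 to 1.15, adjusted p = 0.980 from edgeR). A rise of SHMT1 above 1.15-fold over both lines lay outside that interval. MTHFD1 (chromosome 14, 64388031 to 64463457) had 238 and 226 CPM in SW480 cells and 362 and 333 CPM in SW620 cells. Both SW620 libraries were higher than both SW480 libraries, and in each line the knockdown library was lower than its control, while the groups overlapped. The fold change was 0.933 (95% interval 0.807 to 1.08, adjusted p = 0.938 from edgeR). The processed pseudogene MTHFD1P1 shares 4.32% of the MTHFD1 words in the same sense, and ZBTB25, which overlaps the locus on the opposite strand, had 317 to 838 counts per library.
FPGS (chromosome 9, 127794597 to 127814327), the folylpolyglutamate synthase, had 76.93 and 76.95 CPM in SW480 control and knockdown cells and 74.2 and 80.5 CPM in SW620 cells. Both knockdown libraries lay above both controls, by a margin far smaller than the counting error. FPGS had the smallest ratio of highest to lowest CPM among the 10 genes, and its fold change was 1.04 (95% interval 0.874 to 1.24, adjusted p = 0.980 from edgeR). Of its words, 0% occurred in another annotated gene on either strand.

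Shares of counts within a library do not depend on the scaling between libraries. SHMT2 took 80.2% of the counts of the SHMT2 and SHMT1 pair in SW480 control cells (exact Clopper-Pearson 95% interval 78.9% to 81.6%, 3316 counts) and 30.9% in SW480 knockdown cells (27.4% to 34.6%, 663 counts). In SW620 it took 92.7% in control cells (91.9% to 93.5%, 4045 counts) and 49.3% in knockdown cells (46.6% to 52.1%, 1298 counts). The mitochondrial isozyme thus held most of the pair's counts in both controls, and a minority or an even part of them after knockdown. These intervals cover counting error only, since reads without molecular identifiers are not independent molecules and each condition is a single culture. Per kilobase of all annotated exons, the SHMT2 to SHMT1 ratio went from 6.11 to 0.674 in SW480 and from 19.2 to 1.46 in SW620. The order of the isozymes in knockdown SW620 cells depended on the length used. SHMT2 was the lower of the pair there on counts, the higher per kilobase of all exons, and the lower again per kilobase of the longest transcript, at 13.9 against 17.7 CPM for SHMT1.
For the next enzymes the shares moved less. MTHFD2 took 98.2% of the MTHFD2 and MTHFD2L pair in SW480 control cells and 97.5% after knockdown, and 97.8% and 97.5% in SW620 cells. Against the cytosolic MTHFD1, MTHFD2 took 57.73% (interval 56.4% to 59.0%) and 57.72% (56.1% to 59.4%) of the pair's counts in SW480 control and knockdown cells. In SW620 the corresponding shares were 38.1% (36.4% to 39.8%) and 44.1% (43.0% to 45.2%). MTHFD1L took 42.0% and 42.3% of its pair with MTHFD1 in SW480, and 27.7% and 32.3% in SW620 (intervals 26.0% to 29.4% and 31.2% to 33.4%). Both pairs have MTHFD1 as the partner, at 92.0% of control in knockdown SW620 cells, so their shares are not separate observations. The mitochondrial share of both pairs was alike within SW480 and higher in the knockdown library within SW620, with counting intervals that did not meet. This holds for 1 library of each kind, and the part of the 2.49-fold difference in depth was not tested.

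**Figure D3:**
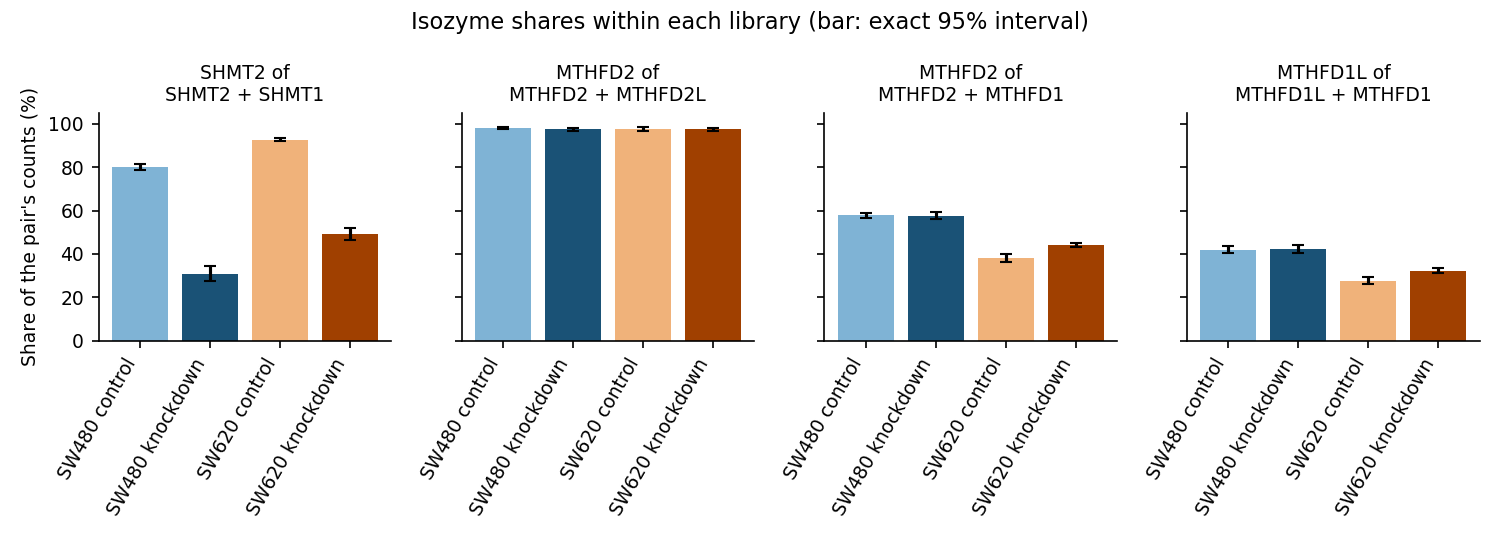
Percent of the counts of 4 gene pairs taken by the first gene, in each library, with exact 95% intervals for counting error. The SHMT2 share fell from 80.2% to 30.9% in SW480 and from 92.7% to 49.3% in SW620, while MTHFD2 held 97.5% to 98.2% of its pair with MTHFD2L.

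Levels of different genes were compared per length, as CPM per kilobase of the exons annotated for the gene. On this length, SHMT2 and MTHFD2 were the most abundant of the 10 in control cells, with MTHFD2 first in SW480 (66.9 against 57.2 for SHMT2) and SHMT2 first in SW620 (142 against 45.8 for MTHFD2). MTHFD1L (34.4 and 27.6 in SW480 and SW620 controls), MTHFD1 (25.4 and 38.6), SLC25A32 (27.9 and 13.8) and FPGS (19.6 and 18.9) formed a middle group whose order differed between the lines. As means of the controls, SHMT2 and MTHFD2 (99.6 ± 59.9 and 56.3 ± 14.9, SD, n = 2 lines) did not differ beyond their spread, nor did MTHFD1 and MTHFD1L (32.0 ± 9.30 and 31.0 ± 4.81) or SLC25A32 and FPGS (20.8 ± 9.97 and 19.2 ± 0.50). Here and below, that SD reflects the difference between 2 lines and holds no spread between replicate cultures, so it is a description and not a test. SHMT1 (9.35 and 7.39) and MTFMT (7.42 and 7.90) followed, and as means of the controls they did not differ beyond their spread (8.37 ± 1.38 and 7.66 ± 0.34, SD, n = 2 lines). Per kilobase of the longest transcript they did, at 22.1 ± 3.66 for SHMT1 and 9.61 ± 0.42 for MTFMT. MTHFD2L (0.603 and 0.503) and ALDH1L2 (0.122 and 0.237) were last in all 4 libraries. After knockdown MTHFD2 was first in both lines, at 63.3 and 54.0, and SHMT2 went to place 8 in SW480 and place 6 in SW620, at 6.38 and 9.82.
The sum over the 10 genes was 249 in control and 188 in knockdown SW480 cells, and 303 and 180 in SW620 cells. Without SHMT2 the sums were 192 and 182 in SW480, and 161 and 170 in SW620. SHMT2 made up 23.0% and 46.9% of the sum in the controls and 3.39% and 5.45% after knockdown. The 7 mitochondrial genes, SHMT2 included, together went from 78.2% to 71.8% of the sum in SW480 and from 78.6% to 65.2% in SW620. Their own sums went from 194 to 135 in SW480 and from 238 to 117 in SW620. Within those sums SHMT2 went from 57.2 to 6.38 and from 142 to 9.82. The mitochondrial share without SHMT2 was not computed, so these shares do not show a fall of the other mitochondrial genes. With the longest transcript as the length, SHMT2 was first in both controls, and in SW620 control cells MTHFD1 (53.10) came before MTHFD2 (50.01).

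**Figure D4:**
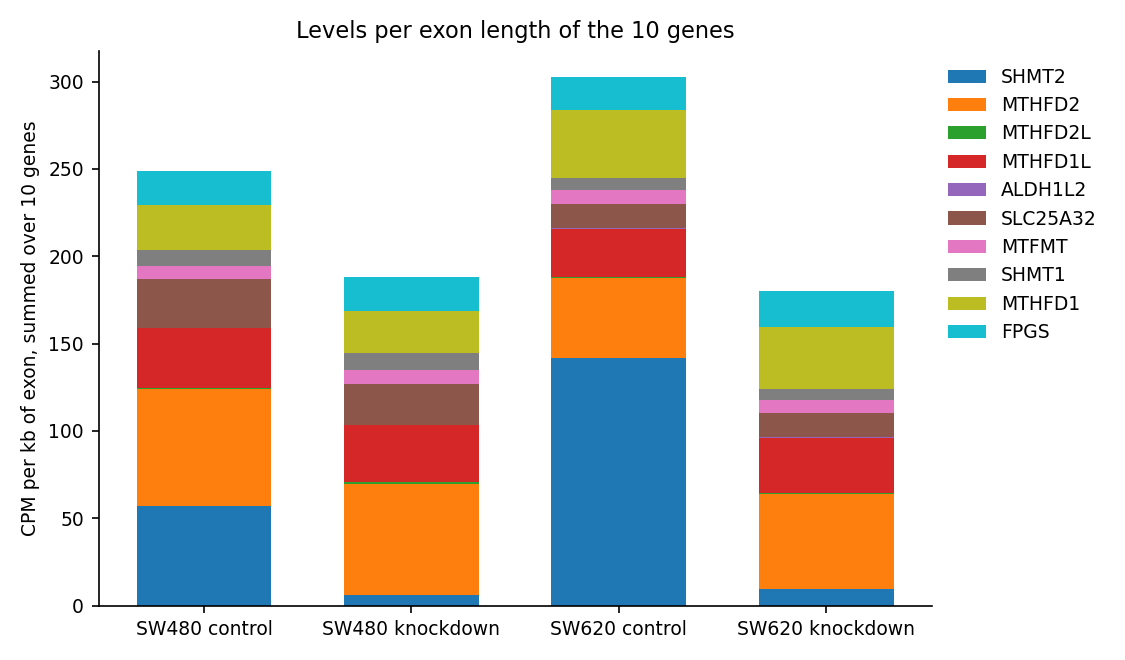
Stacked levels of the 10 genes in each library, in CPM per kilobase of annotated exon, with a bar height of 249, 188, 303 and 180 from left to right. The SHMT2 segment accounts for 23.0% and 46.9% of the control bars and for 3.39% and 5.45% of the knockdown bars.

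The lines were then compared with the treatment as a term. Of the 10 genes, 2 were called higher in SW620 and 3 were called lower, against 32.3% and 31.3% of all genes tested, so the members' count is read against lines that differ in most genes. SHMT2 was higher in SW620 by 1.02 on the log2 scale (standard error 0.12, adjusted p = 2.9e-17 from edgeR), although the libraries of the lines overlapped, the knockdown libraries being low in both. Without the treatment term this call was lost (1.23, adjusted p = 0.315 from edgeR). That value averages over conditions, since the log2 difference was 1.31 between the controls and 0.62 between the knockdown libraries (counting standard errors 0.037 and 0.12). MTHFD1, the cytosolic enzyme, was also higher, by 0.58 on the log2 scale (standard error 0.11, adjusted p = 2.37e-07 from edgeR), with like values of 0.60 in controls and 0.56 in knockdown cells. SLC25A32 was lower, with a log2 fold change of -0.88 (standard error 0.13, adjusted p = 1.56e-10 from edgeR). Its antisense neighbour DCAF13 was lower in SW620 too, at -0.60 (standard error 0.12, adjusted p = 2.37e-06 from edgeR), and its part in the counts of SLC25A32 was not tested.
MTHFD2 and SHMT1 were also lower in SW620, at log2 fold changes of -0.39 and -0.42 (adjusted p = 0.00074 and 0.0031 from edgeR). For SHMT1 the adjusted p was 0.0935 with the DESeq2 Wald test. MTHFD1L differed by -0.19 (adjusted p = 0.150 from edgeR), a call that was made at -0.28 (adjusted p = 0.0369) once all libraries were thinned to 5530129 counts. ALDH1L2, MTHFD2L, MTFMT and FPGS were not called. The interval for ALDH1L2 was 0.798-fold to 3.81-fold, and that for FPGS was 0.843-fold to 1.20-fold. Cell line and culture cannot be told apart in this design.

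**Figure D5:**
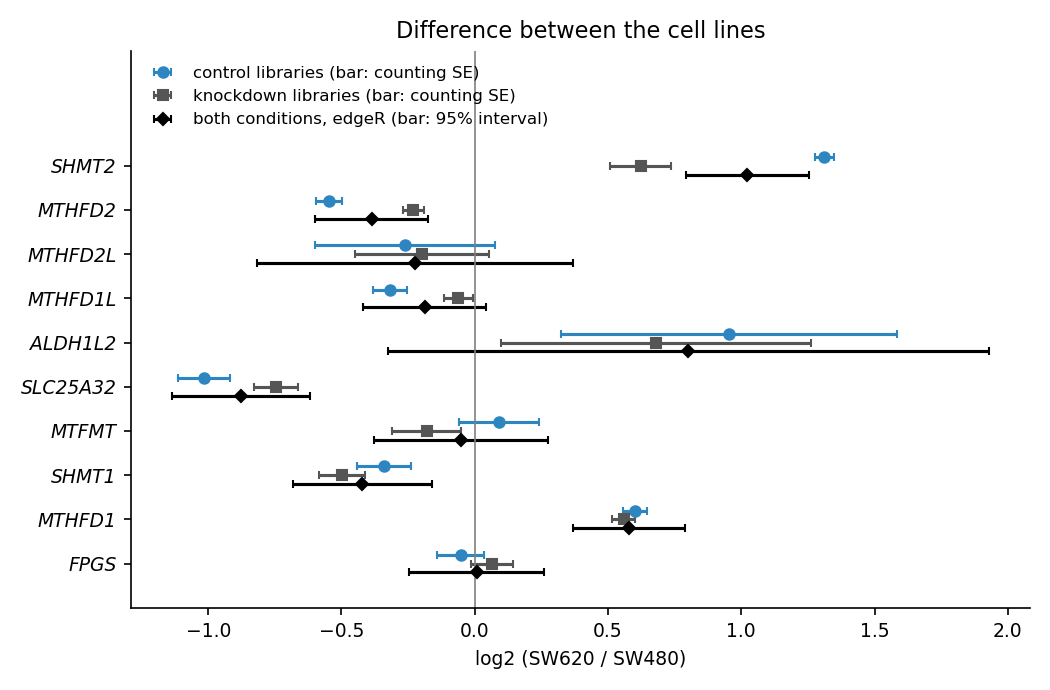
Log2 ratio of SW620 to SW480 for each gene among control libraries (circles) and knockdown libraries (squares), with counting standard errors, and over both conditions (diamonds) with the 95% interval from edgeR. SHMT2 and MTHFD1 lie above 0 at 1.02 and 0.58, and SLC25A32, MTHFD2 and SHMT1 lie below 0.

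The rest of the folate network was examined with 6 lists of 48 genes, of which 41 were tested. List counts at an unadjusted P under 0.05 stand beside 688 lower and 582 higher of the 14024 genes tested by edgeR. In knockdown against control cells 1 of the 41 was called by edgeR, and it was higher, against 0.492% of all genes tested called higher and 1.17% called lower. That gene is PHGDH, the first enzyme of serine synthesis. It had 108 and 161 CPM in SW480 control and knockdown cells and 97.2 and 118 CPM in SW620 cells, both knockdown libraries being above both controls. It rose by 0.43 on the log2 scale (standard error 0.12, adjusted p = 0.0333 from edgeR). The call was kept in edgeR with the size factors of DESeq2 (adjusted p = 0.0331). It was absent without a filter on low counts (adjusted p = 0.130), with a filter of 50 counts (0.169), after thinning (0.130), with the DESeq2 Wald test (0.495) and without the cell line (1.00). The other enzymes of the serine pathway, PSAT1 and PSPH, were at 0.32 and 0.22 on that scale (adjusted p = 0.151 and 0.706 from edgeR).
Of 14 tested genes of cytosolic folate and purine synthesis, 0 were called in either direction by edgeR, 1 had an unadjusted P under 0.05, and the median log2 fold change was -0.07. The smallest p belonged to TYMS, the thymidylate synthase that consumes methylene-tetrahydrofolate, at 199 and 141 CPM in SW480 and 184 and 155 CPM in SW620 (log2 fold change -0.37, adjusted p = 0.0674 from edgeR). PPAT, the first enzyme of purine synthesis, was at -0.23 (adjusted p = 0.635 from edgeR). Of 4 tested genes of folate uptake and storage, 0 were called and 1 had an unadjusted P under 0.05. FOLR1, a folate receptor, had 49 and 46 counts in SW480 and 58 and 240 in SW620. Scaled for depth these were 5.09 and 6.93 CPM, and 10.6 and 17.8 CPM (log2 fold change 0.62, adjusted p = 0.331 from edgeR). SLC19A1, the reduced folate carrier, and SLC46A1, the proton-coupled one, had values of -0.07 and 0.08 (adjusted p = 0.975 and 0.977 from edgeR).
Of 9 tested genes of mitochondrial glycine and serine handling, 0 were called by edgeR and 0 had an unadjusted P under 0.05. SFXN3, SARDH and SLC25A38 had log2 fold changes of -0.14, 0.19 and 0.10. Of 5 genes of translation start with formyl-methionine, 0 were called and 0 had an unadjusted P under 0.05. PDF, the deformylase, had 19 and 7 counts in SW480 and 52 and 84 in SW620. Scaled for depth these were 1.98 and 1.05 CPM, and 9.52 and 6.24 CPM, lower on knockdown in both lines. Its log2 fold change was -0.68 (adjusted p = 0.611 from edgeR), and MTIF3 and MARS2 had 0.10 and 0.08.
Among 6 regulators known to act on mitochondrial folate genes or on the response to their loss, 0 were called by edgeR and 0 had an unadjusted P under 0.05. ATF4, the transcription factor of the amino acid response, which is known to act on SHMT2, MTHFD2 and ALDH1L2, had 500 and 444 CPM in SW480 and 483 and 638 CPM in SW620 (log2 fold change 0.12, adjusted p = 0.881 from edgeR). Its log2 ratio was -0.17 in SW480 and 0.40 in SW620. ATF5 and DDIT3 were at -0.26 and -0.19 (adjusted p = 0.736 and 0.910 from edgeR).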

How the data were processed

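Total RNA of 4 samples was made into Illumina TruSeq libraries. Per the labels, the submitters' processing notes name Bowtie 0.12.2 and hg18. The authors deposited raw read counts per gene symbol, with no normalization. The counting program, annotation and use of strand are not given in the sources used here, and the study's methods name a microarray. In 28 rows symbols had become dates, none of them a gene reported here.

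A gene was tested when 2 or more libraries had 10 or more counts (14024 genes). After TMM scaling, the quasi-likelihood test of edgeR 4.0.16 (R 4.3.3) was used, the model holding cell line and treatment, with 1 residual degree of freedom, and Benjamini-Hochberg adjustment over all genes. Tests were two-sided. Standard errors are the unshrunken coefficient over the square root of F. With 1 library per line and condition, P values rest on a spread shared across genes and hold no spread between replicate cultures. The cell line, from the labels, pairs the libraries, whose deviations from the group means correlated at 0.961 across genes. Single-line ratios are of CPM, with counting errors only. Exon lengths came from GENCODE 29.

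Named genes were the 10 members and, per other list, the called genes or the 3 with the smallest p, and the members' overlapping neighbours were named after their values were seen. A gene that this rule names is not reported here. Members and lists were chosen with earlier results of these data known. The code was tested on simulated data. Alternatives were other filters, DESeq2 1.42.0 and its size factors, thinning, models without 1 term, and single lines or conditions.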

Additional observations from a re-analysis of the deposited data

Results flagged for a closer look

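MTHFD2 and MTHFD1L were noted because the knockdown library lay above its control in SW620 and below it in SW480. For MTHFD2 the log2 ratio of SW620 exceeded that of SW480 by 0.32 (counting standard error 0.063), and for MTHFD1L by 0.26 (counting standard error 0.083). Both differences exceeded 3 counting standard errors, but each line has 1 library per condition and the difference between the lines was not tested. The share of all tested genes with such a difference was not computed. ATF4 (-0.17 in SW480 and 0.40 in SW620) and SLC19A1 (-0.34 and 0.19) had the same signs, and MTFMT (0.18 and -0.09) had the reverse. The signs are thus not particular to MTHFD2 and MTHFD1L. Knockdown libraries held 0.671 times the counts of the matching control for SW480 and 2.49 times for SW620, and the part of depth was not tested.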

How the results depend on the processing

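In the knockdown comparison, 51 values of single members with an adjusted p under an alternative kept their side of the threshold, and SHMT2 without the cell line, 1 value, did not. Another 26 values had no adjusted p. In that model without the replicate block 0 members were called lower. SHMT2 ranged from -3.62 to -3.51 on the log2 scale over the 6 alternatives with a test, and the lowest adjusted p of any of the 9 others was 0.738. DESeq2 gave no adjusted p for 6 of the 10 genes, and ALDH1L2 was not tested with a filter of 50 counts or after thinning. For the 41 other pathway genes the count called higher was 1 with the size factors of DESeq2. It was 0 under the DESeq2 Wald test, a filter of 50 counts, no filter, thinning and no replicate block. Over all genes, the knockdown calls were 164 lower and 69 higher, against 22 and 6 with DESeq2, 54 and 15 with a filter of 50 counts, 137 and 46 without a filter, 86 and 21 after thinning, and 0 and 0 without the replicate block (17 and 1 at an unadjusted P under 0.05). Leaving out either line or condition gave values with no test. Between the lines, all genes called lower and higher were 4394 and 4532, against 2826 and 2680 with DESeq2. The count called higher in SW620 was 1 without the treatment term, where SHMT2 was 1.23 (adjusted p = 0.315 from edgeR). FPGS turned to -0.02 with DESeq2 and with its size factors (-0.0169 and -0.0161), -0.0033 with a filter of 50 counts, -0.0318 without a filter and -0.0553 after thinning, from 0.01 and never called.

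Counted per kilobase of exon, the shares, given as SW480 control, SW480 knockdown, SW620 control and SW620 knockdown, were 85.9%, 40.2%, 95.05% and 59.4% for SHMT2 with SHMT1, 99.1%, 98.8%, 98.9% and 98.7% for MTHFD2 with MTHFD2L, 72.4%, 72.4%, 54.3% and 60.3% for MTHFD2 with MTHFD1, and 57.5%, 57.8%, 41.7% and 47.1% for MTHFD1L with MTHFD1. With the longest transcript, the control mean per kilobase became 1.71 for MTHFD2L, 43.1 for MTHFD1L, 9.61 for MTFMT, 22.1 for SHMT1, 44.0 for MTHFD1 and 33.1 for FPGS. The shift follows from the length used. Depth limits ALDH1L2 and MTHFD2L most.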

Other observations

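Other genes of mitochondrial glycine and folate handling differed between the lines. GLDC, the decarboxylase of the glycine cleavage system that feeds the same methylene-folate pool as SHMT2, had 79 and 64 counts in SW480 control and knockdown cells and 0 and 2 in SW620 cells. AMT and GCSH, other parts of that system, were higher in SW620, with log2 fold changes of 2.17 and 1.29 (standard errors 0.28 and 0.13, adjusted p = 1.65e-14 and 2.32e-22 from edgeR). Of the 9 tested genes of that list, 4 were called higher in SW620 and 1 lower by edgeR. Of the 14 tested genes of cytosolic folate and purine synthesis, 9 were called higher in SW620 and 1 lower, and PFAS had the largest difference, 1.09 (standard error 0.12), among those 14. These genes were chosen after their values were seen, and the counts stand beside 32.3% and 31.3% of all genes tested.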
